A study of Homo sapiens with 4 samples.

Results

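The genes described here are 32 members of the p53 pathway, the damage and stress response that the tumour suppressor p53 runs by switching on target genes, and they were followed in 2 human lung cancer lines after depletion of the histone acetyltransferase hMOF. The members were taken by symbol from a list chosen with earlier results of these data known. Each gene was read on its single-gene probe set with the highest mean over the 4 arrays. Of the 32, 29 had such a probe set, and 28 of these lay above the signal minimum used for testing, among 12830 genes tested in all. BBC3 was read only by a probe set shared with other genes, BTG2 and FDXR had no probe set named here, and none of these 3 was analysed here. The dim member SPATA18, which encodes a protein of mitochondrial quality control, had signals of 42.6 and 43.0 in H1299 (hMOF siRNA and scramble) and 49.9 and 47.1 in A549, below the minimum of 78.1, and was left out of the tests.

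The 4 groups had 1 array each. They were H1299 cells with hMOF siRNA, H1299 cells with scramble siRNA, A549 cells with hMOF siRNA and A549 cells with scramble siRNA. All cells were grown in DMEM with 10% fetal bovine serum and transfected with a cationic lipid reagent. A549 comes from a lung adenocarcinoma and carries wild-type p53, whereas H1299 comes from a lymph node metastasis and lacks p53. Each line is a single tumour-derived line, and they differ in far more than p53, so the p53 status and all other differences between the lines cannot be told apart. The labels used here state neither which siRNA sequences were used, nor how long after transfection the cells were harvested, nor how many cultures there were. With 1 array per group the ratio in each line carries no error, and the number of arrays limits the precision. In the fits with both line and siRNA, the spread behind each p comes from how far the siRNA ratio differs between the lines. It is pooled in part over all genes. That difference may be technical or real, so a gene that changes in 1 line only gets a wide interval and tends not to pass.

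In unstressed cells p53 is kept low by MDM2, a ubiquitin ligase that p53 itself induces, and by its partner MDM4. After DNA damage or other stress p53 is freed from them, binds its response elements and raises genes for growth arrest, DNA repair, metabolism and cell death. hMOF, the product of KAT8, is best known for acetylating histone H4 and is also known to acetylate p53 in its DNA-binding domain. Many members are also driven by other factors, such as the ATF4 stress response for SESN2 and GDF15, and so are transcribed in cells without p53.

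The arrays were checked before the members were read. KAT8 signal was 61.8 with hMOF siRNA and 241 with scramble in H1299, and 106 and 402 in A549, so the 2 arrays whose source names say hMOF siRNA were the low ones in both lines (limma adjusted p = 0.0288). The treatment tag of 2 arrays names the other siRNA and was not used. The epithelial cadherin gene CDH1 stood at 7.61 and 8.04 in H1299, against 1562 and 1535 in A549 (hMOF siRNA and scramble). CDKN2A, which lies in the 9p21 region known to be deleted in A549, stood at 1176 and 1317 in H1299 and at 46.5 and 33.5 in A549. Of the 4 lung lineage markers measured, the surfactant genes SFTPB (702 to 798) and SFTPC (110 to 120) lay above the signal minimum on all 4 arrays, and NKX2-1 (60.8 to 72.9) and AQP5 (63.6 to 82.0) had means below it. Of the 7 markers of other cell types measured, PECAM1 (205 to 224), CD3E (85.6 to 88.0) and COL1A1 had means above the minimum. PTPRC, CDH5 and DCN did not exceed 41.5, 52.5 and 70.4 on any array, and CD14 stood at 28.0 and 30.4 in H1299 and 116 and 127 in A549 (hMOF siRNA and scramble). The part of these markers in the results was not tested. Median signals of the arrays lay between 73.3 and 75.4. On the list of line markers 9 of 9 measured genes were called between the lines by limma, on the lung lineage list 0 of 2, and on the list of other cell types 1 of 3, COL1A1. Of all genes tested 52.4% were called. Some of these markers, CDH1 and COL1A1 among them, passed the signal minimum only through A549, and CDKN2A only through H1299, so the filter fixed their directions.

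The first comparison asked which members differed with hMOF siRNA over both lines. All ratios are log2 of signal plus an offset of 29.06, hMOF siRNA over scramble, which shrinks the ratios of dim genes. In limma's fit with the cell line as a block and the lines as the only repeats, 1 of 28 members passed the adjusted threshold of 0.05, XPC, which rose, and none fell. Over all genes tested, 1.16% were called higher and 2.41% lower, 3.57% in all. At an unadjusted p under 0.05 there were 7 members (25%), against 23.8% of all genes. The other 27 members had mean log2 changes between −0.99 and 0.43, with limma adjusted p from 0.0772 to 0.982. The median change of the members was −0.06, and that of all genes −0.01. In these bulk samples, fewer cells of a type and less RNA per cell cannot be told apart.

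XPC encodes the damage sensor that starts global nucleotide excision repair. Its signal was 644 with hMOF siRNA and 332 with scramble in H1299, and 1394 and 707 in A549. Both hMOF siRNA arrays lay at nearly the same multiple of their own scramble array, 1.94 times in H1299 and 1.97 times in A549. The mean log2 change was 0.93 (SE 0.11, 95% interval 0.65 to 1.21; limma adjusted p = 0.0335), with a rise in 2 of 2 lines. The log2 ratios were 0.90 in H1299 and 0.95 in A549. XPC was read by 1 probe set only, and with no cell line block in the fit its limma adjusted p was 0.99994.

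DDB2, the partner of XPC in recognising ultraviolet damage in chromatin and a classical p53 target, stood near level in H1299. Its signal was 247 with hMOF siRNA and 265 with scramble in H1299, and 1218 and 635 in A549. The A549 array with hMOF siRNA stood apart from the scramble array of the same line, while the H1299 arrays were nearly level. The log2 ratios were −0.09 in H1299 and 0.91 in A549, and the mean over both lines did not pass (0.41, 95% interval −0.25 to 1.07; limma adjusted p = 0.401). With 1 array per line and siRNA, the difference between the lines cannot be tested.

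The DDB2 promoter is shown because it was the one member promoter that held a pair of p53 decamers. The search took the p53 decamer consensus, the 10-base unit of the p53 response element, on both strands (the consensus reads the same on each), in the RefSeq windows of 300 bases, 250 before and 50 after each start site (GRCh38.p14). In the window of the downstream DDB2 start on the plus strand, chr11:47214724-47215023, the capitals mark the decamers, which begin at bases 6 and 17, counting the start as base 1.
DDB2: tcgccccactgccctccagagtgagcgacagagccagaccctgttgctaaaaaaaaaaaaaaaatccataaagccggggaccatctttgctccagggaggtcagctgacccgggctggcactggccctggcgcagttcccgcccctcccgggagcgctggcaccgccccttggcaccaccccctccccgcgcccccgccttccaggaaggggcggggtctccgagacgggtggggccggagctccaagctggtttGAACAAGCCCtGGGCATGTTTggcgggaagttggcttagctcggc
A pair of decamers with a spacer of 0 to 13 bases was found in 10 of all 35116 promoter windows (0.0285%).

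A decamer, alone or in a pair, was found in the windows of 6 of the 26 members in the promoter table, 5 of them measured on the arrays. Besides DDB2 these were AEN, FAS, PLK2 and SESN1, whose sites are printed with 10 bases on each side, with capitals on the decamer. AEN is at chr15:88621296-88621325 (plus strand), FAS at chr10:88991299-88991328 (plus), PLK2 at chr5:58460199-58460228 (minus) and SESN1 at chr6:109009018-109009047 (minus), all in GRCh38.p14.
AEN: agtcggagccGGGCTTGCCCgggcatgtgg
FAS: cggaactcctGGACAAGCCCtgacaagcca
PLK2: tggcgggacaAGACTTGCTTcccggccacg
SESN1: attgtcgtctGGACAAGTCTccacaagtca
Of all promoter windows 6.63% held a decamer, and of the 40 member windows, several of which overlap, 15%. All 5 measured members with a decamer had a ratio below 0 in H1299 and above 0 in A549, as did 4 of the 17 measured members whose windows held none. The H1299 ratio of DDB2 was near 0 (−0.09), and some other FAS probe sets above the signal minimum had the opposite signs. Over all genes tested that had a promoter window, 16.5% of the 769 with a decamer and 14.2% of the 9617 without one had these signs. A match here is a description of the letters and not a binding site.

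**Figure D1:**
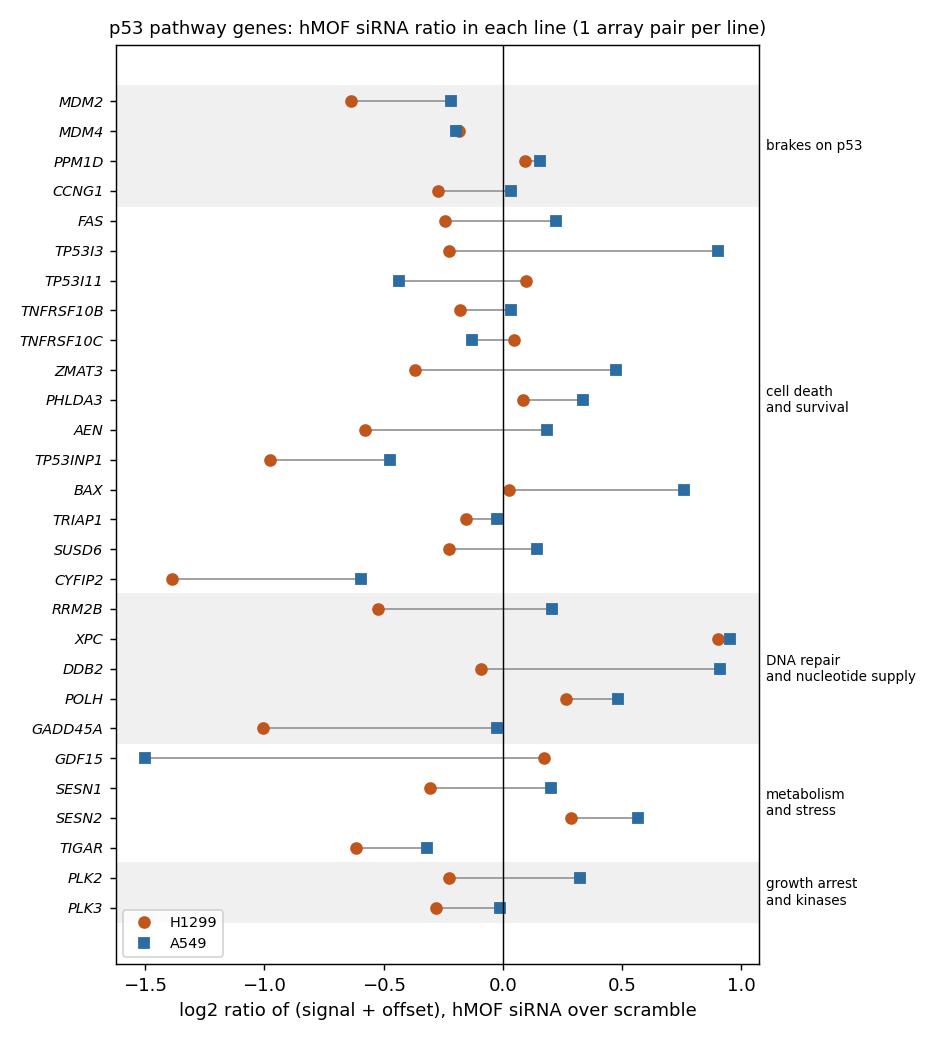
Log2 ratio of hMOF siRNA to scramble (signal plus offset) for the 28 measured members, grouped by role, with H1299 as circles, A549 as squares and 1 array pair behind each point. For 24 of the 28 members the circle lies left of the square, and XPC is the member with both points near 0.9.

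The second comparison asked how the siRNA ratios of the lines stood to each other. Of the 28 members, 24 (85.7%) had a lower ratio in H1299 than in A549, against 46.9% of all genes tested. The median ratio was −0.23 in H1299 and 0.15 in A549, while those of all genes were −0.01 and −0.02. In all, 11 members (39.3%) were below 0 in H1299 and above 0 in A549, against 14.8% of all genes, and 3 members (10.7%) had the opposite signs, against 16.9%. These counts go by sign alone and include ratios near 0, such as CCNG1 (0.03) and TNFRSF10B (0.04) in A549 and DDB2 (−0.09) in H1299. Only ZMAT3 (−0.37 in H1299 and 0.47 in A549) also reached, in each line, the minimum fold set for flagging a member. The H1299 ratio was lower by at least 0.5 on the log2 scale for 11 members, against 5.31% of all genes. It was higher by at least 0.5 for 2 members, GDF15 and TP53I11, against 5.35%. Of the members, 17 (60.7%) were above 0 in A549, against 46.4% of all genes, and 19 (67.9%) below 0 in H1299, against 51.5%. In both lines 6 members were above 0 (21.4%, against 31.6%) and 8 below 0 (28.6%, against 36.7%). The difference between the lines has no replicate check and was not tested. Opposite medians of an overlapping list in the lines were known when the members were chosen, so these counts and medians are no independent support.

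**Figure D2:**
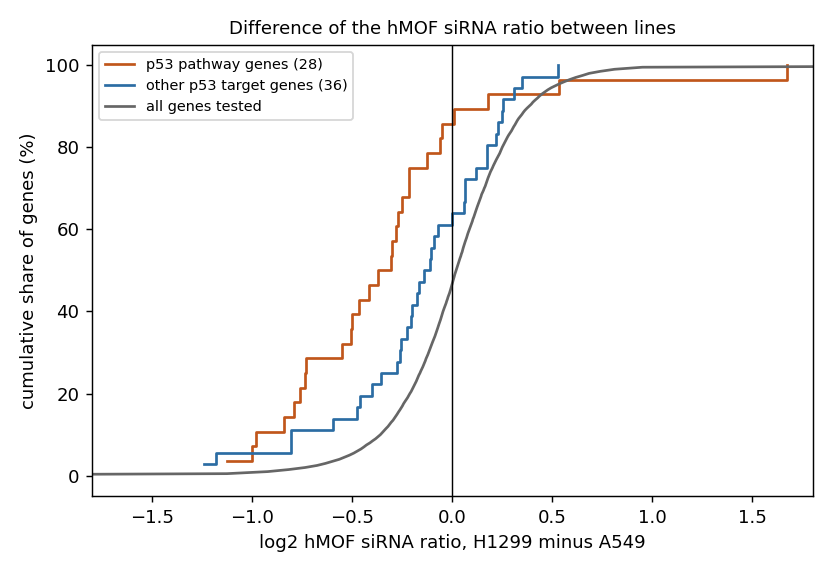
Cumulative share of genes (percent) against the difference of the log2 hMOF siRNA ratio, H1299 minus A549, for the 28 p53 pathway genes, 36 other p53 target genes and all 12830 genes tested. The p53 pathway curve crosses 0 at 85.7%, that of the other targets at 63.9% and that of all genes at 46.9%.

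Among the members with a role in cell death, TP53I3, a quinone oxidoreductase tied to oxidative stress, had the widest gap. Its signal was 601 with hMOF siRNA and 708 with scramble in H1299, and 4348 and 2315 in A549. The A549 array with hMOF siRNA was far above the other 3, and the log2 ratios were −0.23 in H1299 and 0.90 in A549. BAX, which permeabilises the outer mitochondrial membrane in apoptosis, had 315 and 309 in H1299 and 745 and 428 in A549, with log2 ratios of 0.03 and 0.76. A separate BAX probe set gave 0.05 in H1299 and 0.60 in A549. Neither gene passed over both lines (limma adjusted p = 0.535 for TP53I3 and 0.315 for BAX).

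ZMAT3, an RNA-binding protein that p53 induces, had signals of 524 with hMOF siRNA and 684 with scramble in H1299, and 885 and 629 in A549. The hMOF siRNA array was thus the lower of its pair in H1299 and the higher in A549, with log2 ratios of −0.37 and 0.47. The other 3 ZMAT3 probe sets above the signal minimum gave the same signs, from −0.30 to −0.24 in H1299 and from 0.28 to 0.56 in A549. Probe sets of a gene read the same RNA and are not replicates. AEN, an apoptosis-enhancing nuclease, had 377 and 576 in H1299 and 976 and 855 in A549 (log2 −0.58 and 0.19). The antiproliferative membrane protein gene SUSD6 had 283 and 336 in H1299 and 439 and 395 in A549 (−0.23 and 0.14).

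Among the death receptors, FAS, the receptor of FAS ligand, had 233 with hMOF siRNA and 281 with scramble in H1299, and 367 and 310.2 in A549, with log2 ratios of −0.24 and 0.22. Its other probe sets above the signal minimum were closer to 0, from −0.08 to 0.17 in H1299 and from −0.06 to 0.10 in A549. TNFRSF10B, a signalling receptor for TRAIL, had ratios of −0.18 in H1299 and 0.04 in A549. TNFRSF10C, a decoy receptor without a death domain, was dim on all arrays (109 to 131), with ratios of 0.05 and −0.13. TRIAP1, which restrains apoptosis, stood at −0.15 and −0.03.

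A set of members had lower signals with hMOF siRNA in both lines. CYFIP2, a cytoskeletal regulator that p53 induces, had 171 with hMOF siRNA and 493 with scramble in H1299, and 522 and 803 in A549. TP53INP1, a stress-induced partner of p53 with a role in autophagy, had 484 and 980.3 in H1299 and 662 and 930 in A549. TIGAR, which lowers glycolytic flux, had 524 and 819 in H1299 and 664 and 834 in A549. In each of these genes both hMOF siRNA arrays lay below their scramble array, by more in H1299. The mean log2 changes were −0.99 for CYFIP2 (95% interval −1.54 to −0.44), −0.72 for TP53INP1 (−1.13 to −0.31) and −0.47 for TIGAR (−0.80 to −0.14). None passed over all genes (limma adjusted p = 0.0772, 0.0797 and 0.116), and CYFIP2 passed when a gene's kept probe sets were averaged (−1.07; limma adjusted p = 0.0473). With the same averaging TP53INP1 was at −0.25 (limma adjusted p = 0.411). A separate TP53INP1 probe set disagreed, at −0.10 in H1299 and 0.53 in A549.

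**Figure D3:**
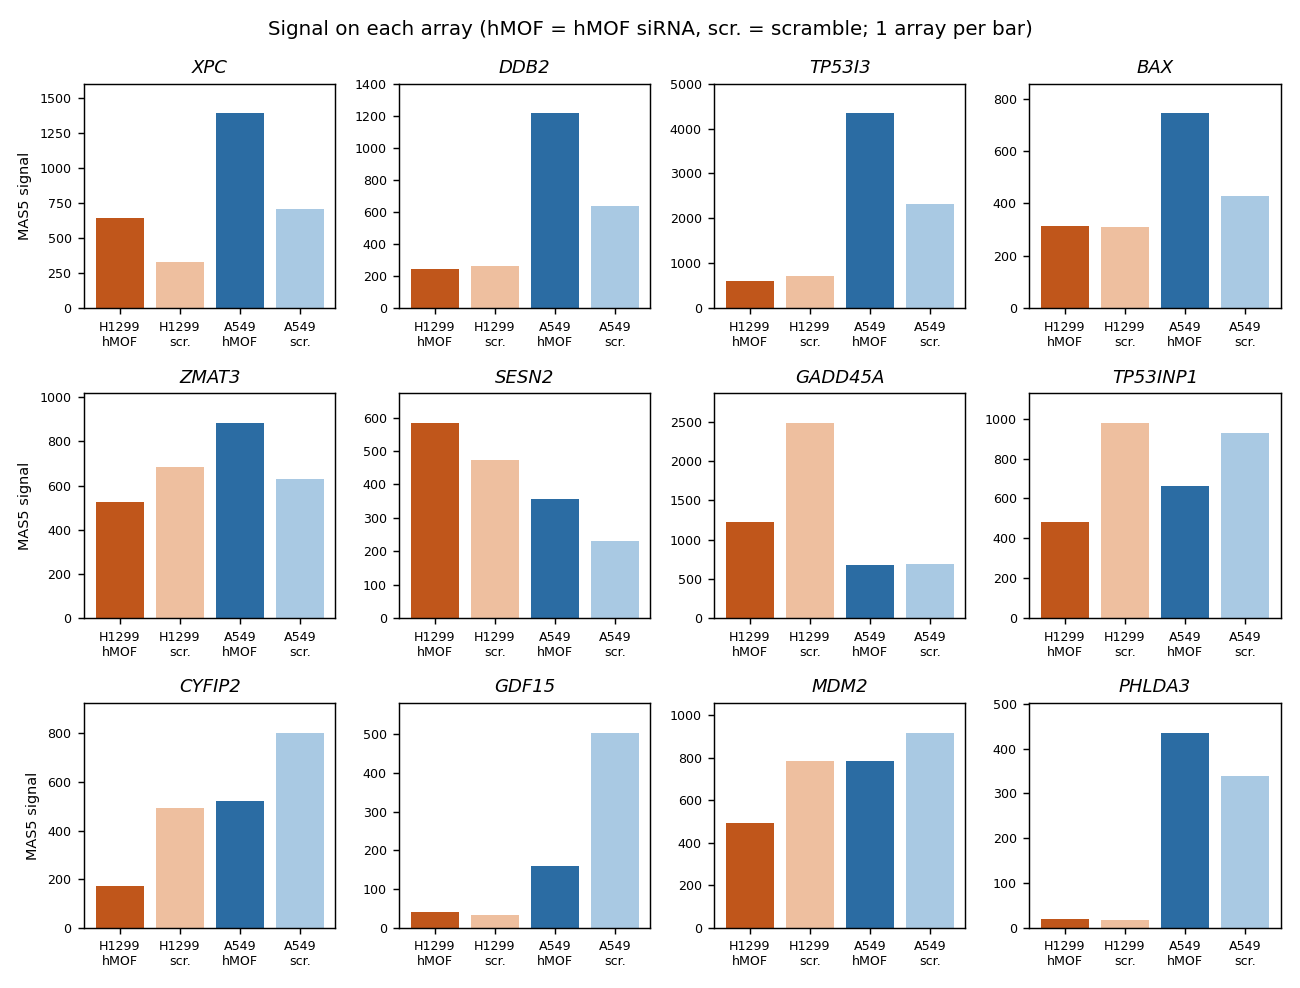
MAS5 signal of 12 members on each array, with H1299 left of A549 and hMOF siRNA (dark) left of scramble (light), 1 array per bar and an axis from 0 in each panel. XPC was higher with hMOF siRNA in both lines, DDB2, TP53I3 and BAX had their highest bar in A549 with hMOF siRNA, and the H1299 bars of GDF15 and PHLDA3 lie near 0.

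GADD45A and RRM2B stood apart among the members for repair and nucleotide supply. GADD45A, a growth arrest and repair factor that stress can also induce without p53, had 1227 with hMOF siRNA and 2490.4 with scramble in H1299, and 677 and 688 in A549. The A549 arrays were nearly level, and the log2 ratio was −1.004 in H1299 and −0.02 in A549, and the mean did not pass (limma adjusted p = 0.297). RRM2B, the p53-induced subunit of ribonucleotide reductase, had 214 and 320.2 in H1299 and 269 and 229 in A549 (−0.52 and 0.21). POLH, a polymerase that copies past ultraviolet damage, had 238 and 194 in H1299 and 120 and 77.5 in A549, higher with hMOF siRNA in both (0.26 and 0.48; limma adjusted p = 0.151).

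GDF15, a secreted stress cytokine, had the largest ratio of any member. Its signal was 41.8 with hMOF siRNA and 33.9 with scramble in H1299, and 160 and 504 in A549. The H1299 arrays were both near the offset, and in A549 the hMOF siRNA array was at 0.317 times its scramble array, with log2 ratios of 0.17 and −1.50. The suffix of that probe set (_x_at) marks probes that may match other transcripts, and the 2 dimmer GDF15 probe sets, both below the signal minimum, gave −0.21 and 0.05 in A549. TP53I11, a p53-induced membrane protein gene, was likewise near the offset in H1299 (31.1 and 27.3) and at 437 with hMOF siRNA and 602 with scramble in A549 (log2 0.10 and −0.44).

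The sestrins, which restrain mTORC1 under stress, differed from each other. SESN2 had 584 with hMOF siRNA and 474 with scramble in H1299, and 355 and 230 in A549, higher with hMOF siRNA in both lines (0.29 and 0.57; limma adjusted p = 0.133). A separate SESN2 probe set gave 0.39 and 0.47. SESN1 had 147 and 188 in H1299 and 206 and 175 in A549 (−0.30 and 0.20). PLK2, a kinase of centriole duplication and stress checkpoints, had 403 and 476 in H1299 and 1568 and 1247 in A549 (−0.23 and 0.32). PLK3, a related kinase, was dim and stood at −0.28 and −0.01.

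Among the brakes on p53, MDM2 had 495 with hMOF siRNA and 785 with scramble in H1299, and 786 and 919 in A549, with log2 ratios of −0.63 and −0.22 (mean −0.43, 95% interval −0.80 to −0.05; limma adjusted p = 0.168). MDM4 had ratios of −0.18 and −0.20, and PPM1D, a phosphatase that turns the damage response off, 0.09 and 0.15. CCNG1, a cyclin that recruits a phosphatase to MDM2, had −0.27 and 0.03. None of the 4 passed over both lines. The MDM2 probe set used is an _x_at set. Of the other 5 above the signal minimum 1 was close to it (−0.82 and −0.21), and the rest ran from −2.63 to 0.22 in H1299 and from −0.32 to 0.03 in A549.

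The folds that follow are on signal plus offset. By size alone, with no test, 5 members were at least 1.5-fold lower with hMOF siRNA in H1299, namely MDM2, CYFIP2, TP53INP1, TIGAR and GADD45A, and 1 was at least 1.5-fold higher, XPC. All genes gave 7.33% lower and 5.06% higher. In A549, 4 members were at least 1.5-fold higher, XPC, DDB2, TP53I3 and BAX, and 2 at least 1.5-fold lower, GDF15 and CYFIP2. There, all genes gave 3.40% higher and 5.78% lower. Members past 2-fold were GADD45A and CYFIP2 in H1299, both lower (2.21% of all genes), and GDF15 in A549, also lower (1.14%). No member was at least 2-fold higher in H1299 (1.22% of all genes) or in A549 (0.717%). With no offset TP53INP1 was also past 2-fold lower in H1299 (log2 −1.02). Past 1.5-fold, no offset added AEN in H1299 (−0.61) and SESN2 and POLH in A549 (0.63 each).

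The third comparison set H1299 against A549, with the siRNAs as the only repeats. Limma called 17 of the 28 members (60.7%), 13 lower and 4 higher in H1299, against 52.4% of all genes, of which 27.3% were lower and 25.1% higher. The median log2 ratio of the members was −0.41, against −0.03 for all genes. PHLDA3, TP53I11 and GDF15, among the 13 lower members, passed the signal minimum only through A549, so the filter fixed their directions.

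The widest gaps were in PHLDA3, TP53I11, GDF15 and TP53I3, and the filter fixed the direction of all but TP53I3. PHLDA3, which blocks AKT at the membrane and is a direct p53 target, had signals of 19.2 with hMOF siRNA and 16.4 with scramble in H1299, against 436 and 339 in A549. Both H1299 arrays lay under the offset, so its log2 difference of −3.14 (SE 0.12; limma adjusted p = 0.000118) is set in part by the offset. With no offset it was −4.50 with hMOF siRNA and −4.37 with scramble. TP53I11 was at −3.22 (SE 0.16; limma adjusted p = 0.000238), but its other probe sets above the signal minimum gave −0.29 and 0.05, and with probe sets averaged it was at −1.15. GDF15 was at −2.25 (SE 0.40) and TP53I3 at −2.23 (SE 0.28).

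The other members lower in H1299 were DDB2 (−1.68), PLK2 (−1.61), CYFIP2 (−1.07), XPC (−1.05), TNFRSF10B (−1.02), AEN (−0.93), BAX (−0.80), TRIAP1 (−0.59) and MDM4 (−0.54), with limma adjusted p between 0.00168 and 0.0256. Higher in H1299 were GADD45A (1.32), POLH (0.96), SESN2 (0.82) and CCNG1 (0.49), with limma adjusted p between 0.00294 and 0.0294. Of the 13 measured genes in the cell death group, 8 were lower in H1299 (61.5%, against 27.3% of all genes) and none higher (against 25.1%). Among these 8, PHLDA3 and TP53I11 passed the signal minimum only through A549 and so could only be lower in H1299. The 11 members not called lay between −0.43 and 0.26, MDM2 among them (−0.43, 95% interval −0.80 to −0.05; limma adjusted p = 0.0597, and 0.12 on the log2 scale with its kept probe sets averaged). With probe sets averaged POLH was at 0.44 and FAS, then called, at −0.62 (limma adjusted p = 0.00579).

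The gap between the lines under each siRNA was described without a test. The median log2 ratio of H1299 to A549 was −0.62 with hMOF siRNA and −0.22 with scramble. With hMOF siRNA 11 members were at least 2-fold lower in H1299 (39.3%, against 11.9% of all genes) and none at least 2-fold higher (9.70% of all genes). With scramble 7 were at least 2-fold lower (25%, against 11.1%) and 2 higher, GADD45A and POLH (9.04% of all genes). PHLDA3, TP53I11 and GDF15, which passed the signal minimum only through A549, are in both counts of lower members. These sizes are on signal plus offset, and with no offset SESN2 with scramble was also past 2-fold (log2 1.05). DDB2 stood at −2.18 with hMOF siRNA and −1.17 with scramble, TP53I3 at −2.80 and −1.67, and BAX at −1.17 and −0.43. GDF15 had the smaller gap with hMOF siRNA, at −1.41 with hMOF siRNA and −3.08 with scramble. These values hold the same information as the siRNA ratios within each line.

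**Figure D4:**
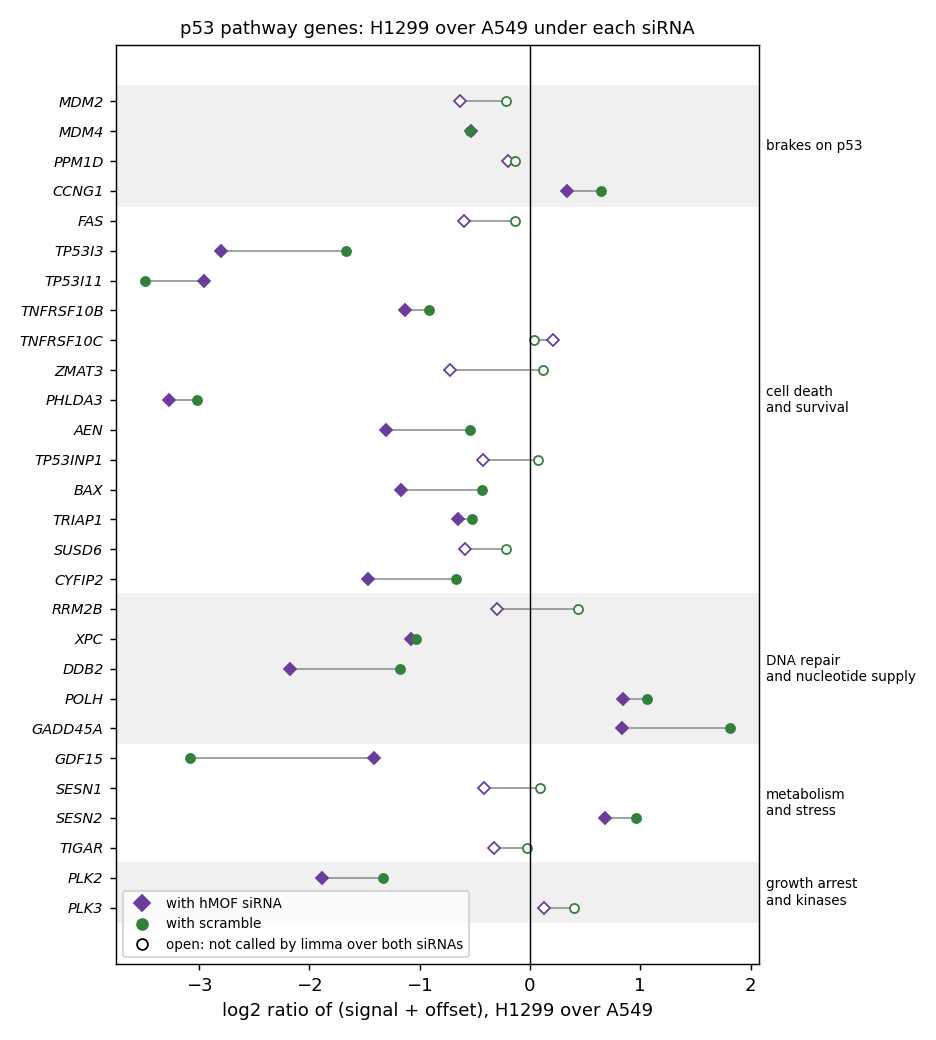
Log2 ratio of H1299 to A549 (signal plus offset) for the 28 measured members, with hMOF siRNA as diamonds and scramble as circles, 1 array pair behind each point, filled where limma called the gene over both siRNAs. PHLDA3 and TP53I11 lie farthest left, and GADD45A with scramble farthest right.

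Probe sets that were not chosen gave a further look at the same RNA. The 29 members had 76 single-gene probe sets, and 26 beyond the chosen ones lay above the signal minimum, in 14 genes. Of these 26, 19 had the sign of the chosen probe set for the siRNA ratio in H1299, 18 in A549, and 21 for the difference between the lines. BAX, SESN2, PHLDA3, CYFIP2 and ZMAT3 kept their signs in both lines on every such probe set, and FAS, MDM4, MDM2, TP53I11, POLH, TP53INP1, PPM1D, PLK3 and TNFRSF10B each had at least 1 that differed in a line.

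**Figure D5:**
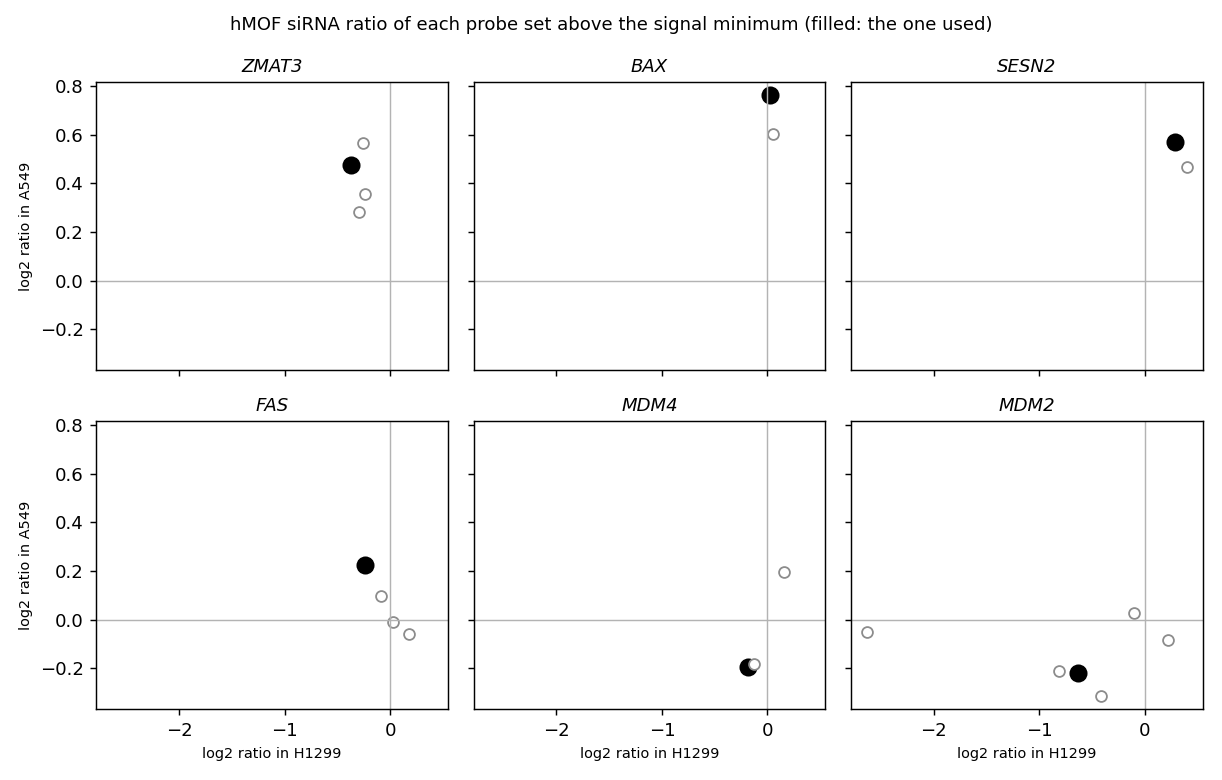
Log2 hMOF siRNA ratio in A549 against that in H1299 for every probe set above the signal minimum of 6 members, with the one used filled. The 4 ZMAT3 probe sets all lie left of 0 on the H1299 axis and above 0 on the A549 axis, and 1 MDM2 probe set lies at −2.63 in H1299.

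Other genes of the pathway were read from further lists. Of 40 other p53 target genes, 36 were measured, and 1 was called with hMOF siRNA, where 3.57% of all genes tested were called. It was PERP, an apoptosis-linked membrane protein gene, which rose (4644 with hMOF siRNA and 2570.1 with scramble in H1299, 7358 and 4607 in A549; log2 0.85 and 0.67; limma adjusted p = 0.0457). That call was lost with no signal filter (limma adjusted p = 0.0502). In this list 23 of 36 genes (63.9%) had the lower siRNA ratio in H1299, and 5 (13.9%) were below 0 in H1299 and above 0 in A549, a share near the 14.8% of all genes. The cell cycle inhibitor gene CDKN1A had 731 with hMOF siRNA and 1707 with scramble in H1299, and 1594 and 1606 in A549 (−1.19 and −0.01; limma adjusted p = 0.297). CD82, a tetraspanin that restrains metastasis, had 248 and 665 in H1299 and 62.0 and 67.7 in A549 (−1.33 and −0.09; limma adjusted p = 0.249).

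Between the lines, 23 of the 36 other targets were called, 15 lower in H1299 and 8 higher. That is 63.9%, against 52.4% of all genes, with 41.7% lower (27.3% of all genes) and 22.2% higher (25.1%). The lowest in H1299 were IGFBP3 (−5.64), the checkpoint protein gene SFN (−3.97), KITLG (−1.75), the ribosomal protein-like gene RPS27L (−1.63) and NINJ1 (−1.40). The highest were TGFA (2.88), CD82 (2.22), CDIP1 (1.38), the repressor gene E2F7 (1.35) and PML (1.31). Their limma adjusted p values lay between 7.3e-05 and 0.00405. IGFBP3 passed the signal minimum only through A549 and CD82 only through H1299, so the filter fixed their directions.

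Of 30 genes for p53, its kinases, ligases and cofactors, 24 were measured, and 1 was called with hMOF siRNA, where 3.57% of all genes tested were called. It was the lysine methyltransferase gene SETD7, which can methylate p53. Its signal was 1577 with hMOF siRNA and 335 with scramble in H1299, and 2349 and 956 in A549 (log2 2.14 and 1.27; mean 1.71, SE 0.23; limma adjusted p = 0.0386). Both hMOF siRNA arrays lay well above both scramble arrays. Between the lines 12 of the 24 were called (50%, against 52.4% of all genes), 6 in each direction (25% each, against 27.3% lower and 25.1% higher). The lowest in H1299 were the p53 deubiquitinase gene USP7 (−1.003), SETD7 (−1.002), EP300 (−0.82), SIRT1 (−0.61) and CREBBP (−0.45), and the highest were CDKN2A (4.21), HDAC1 (0.99), KAT2B (0.91), HIPK2 (0.60) and RPL11 (0.45), with limma adjusted p between 9.3e-05 and 0.0234. CDKN2A passed the signal minimum only through H1299, so the filter fixed its direction.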

How the data were processed

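Total RNA of the 4 samples was labelled as biotinylated cRNA and hybridised to Affymetrix arrays, per the labels, and the files hold 54675 probe sets. The deposited values are linear signal intensities, for which the submitters' processing notes name MAS5. The sources used here give no version or scaling target, and detection calls were not used here. Groups came from the source names. Probe sets were named through the platform annotation (41091 had 1 gene, 1801 several, 11721 none here, and 62 were controls), with symbols looked up by gene identifier in RefSeq (GRCh38.p14).

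The offset of 29.06 is the 20th percentile of all signals, and the signal minimum of 78.1 the 50th percentile of probe set means. Each gene was represented by its brightest single-gene probe set. Limma 3.58.1 in R 4.3.3 (lmFit, eBayes) was fitted to all 12830 genes with terms for line and siRNA, with 1 residual and 3.74 prior degrees of freedom, and Benjamini-Hochberg adjustment over all of them. The procedure was also run on simulated data with the same noise for every gene. The arrays were not shown to have equal noise, so that run does not check the calls made here. Ratios within a line were judged by size only. Promoters came from a RefSeq table (GRCh38.p14). Figures used matplotlib 3.10.9.

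The members and lists were chosen with earlier results of these data known, among them opposite medians of an overlapping list in the lines, so no count here is independent support. All 32 members are named, with KAT8, CDKN1A and CDKN2A as checks. From the further lists the text names genes called with the siRNA or at least 2-fold in a line, and the 5 largest called differences each way between lines. Alternatives were an offset of 0 or 56.5 (the 40th percentile), a minimum of 179 (the 70th percentile) in place of 78.1 or none at all, quantile normalization, median centring, averaging probe sets, leaving out _x_at probe sets, eBayes with trend, no block, and leaving out each line or siRNA.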

Additional observations from a re-analysis of the deposited data

Results flagged for a closer look

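ZMAT3 was 1 of 11 members with a siRNA ratio below 0 in H1299 and above 0 in A549, and of these the one whose smaller ratio lay farthest from 0, at log2 −0.37 in H1299 and 0.47 in A549. No other member had opposite signs and the minimum fold set for flagging in both lines. TP53I3 (−0.23 in H1299 and 0.90 in A549) and DDB2 (−0.09 and 0.91) had wider gaps. The median ratio of the 28 measured members also lay on opposite sides of 0, at −0.23 in H1299 and 0.15 in A549. Each line has 1 array pair, so neither difference was tested. Opposite medians of an overlapping list were already known when the members were chosen. The 4 groups hold 1 array each, so no array could be set against others of its group.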

How the results depend on the processing

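XPC passed limma's test with hMOF siRNA under 9 of 9 alternatives that kept the block (mean log2 0.89 to 0.97, limma adjusted p from 0.0225 to 0.0365), as did SETD7 (1.66 to 1.77). The number of members called with hMOF siRNA was 1 in the reported fit, 2 with probe sets averaged and 0 with no cell line block, where limma called 0 of all genes (350 at an unadjusted p under 0.05). The number called between lines was 17, 19 with probe sets averaged, where FAS and SUSD6 were added, and 10 with no siRNA block, where XPC, CYFIP2, MDM4, BAX, GADD45A, SESN2 and CCNG1 lost the call (limma adjusted p from 0.0516 to 0.190). The cause was not tested. Some values that did not pass changed sign. With averaged probe sets the siRNA effect was 0.016 for FAS and −0.025 for PPM1D, and the line effect was 0.12 for MDM2 (−0.43 in the reported fit) and 0.044 for PPM1D. With quantile normalization the siRNA effect was 0.063 for FAS and 0.033 for SUSD6. Under the 8 alternatives of offset, filter, scaling and probe set, 22 to 25 members had the lower siRNA ratio in H1299, and 11 to 14 lay below 0 in H1299 and above 0 in A549. Leaving out a line leaves 1 array per siRNA and no test, and XPC was then at 0.90 (H1299) or 0.95 (A549). No paired analysis by replicate number was possible because the labels number no replicates. Signals near the offset (GDF15, TP53I11 and PHLDA3 in H1299) limit their ratios.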

Other observations

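The TRAIL receptor genes lie in a cluster and were read by 4 separate probe sets. The signalling receptor gene TNFRSF10A had 503 with hMOF siRNA and 711 with scramble in H1299, and 351 and 499 in A549, so both hMOF siRNA arrays were lower by a similar ratio (log2 −0.48 and −0.47; limma adjusted p = 0.0834). The decoy receptor gene TNFRSF10D had 630.5 and 756 in H1299 and 958 and 642 in A549, with ratios on opposite sides of 0 (−0.25 and 0.56; limma adjusted p = 0.726). Against these, TNFRSF10B and TNFRSF10C were near 0 in both lines. TNFRSF10A and TNFRSF10D are named here after their values were seen.

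A separate MDM2 probe set, with the widest ratio of the 6 above the signal minimum, was at 55.1 with hMOF siRNA and 494 with scramble in H1299, and at 88.8 and 93.1 in A549. The H1299 scramble array alone was high, and the log2 ratio in H1299 was −2.63, against −0.63 on the probe set used for MDM2. The collagen gene COL1A1, on the list of markers of other cell types, was at 7.89 and 7.97 in H1299 and at 1191 with hMOF siRNA and 541 with scramble in A549 (log2 1.10; limma adjusted p over both lines = 0.310).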
